A study of Mus musculus with 6 samples.

Results

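The Sall genes Sall1, Sall2, Sall3 and Sall4, which encode zinc finger transcription factors, were taken by name as 4 of the 21701 protein-coding genes annotated on mm10. Every region of 8 deposited peak lists that lay within 50 kb of the annotated 5′ end of one of them was collected, which gave 156 regions. The samples were forelimb buds of wild-type B6CBAF1 embryos at E12.5, by days of embryonic development. Tissue of several embryos was pooled for each ChIP-seq library. The buds were cut into the distal forelimb (DFL, the future digits) and the proximal forelimb (PFL, the future arm). Each piece had 1 library for H3K27ac, found at active promoters and enhancers, 1 for H3K27me3, the Polycomb mark, and 1 for CTCF, a DNA-binding protein of chromatin domain borders. No group had a replicate, so no test between the pieces could be made, and all intervals are 95% intervals that cover counting error only. HOXA13 and HOXD13, together HOX13, came as 2 more lists from forelimb buds of an earlier stage, named embryonic day 11, and they belong to none of the 6 samples.

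SALL proteins are the vertebrate relatives of Drosophila Spalt. They bind DNA through pairs of zinc fingers and, through a short motif at the amino-terminal end, recruit the NuRD complex, which removes histone acetyl groups and remodels nucleosomes. In humans, mutations of SALL1 cause Townes-Brocks syndrome and mutations of SALL4 cause Duane-radial ray syndrome, both with malformed thumbs. In the mouse limb, Sall1 and Sall3 act together in the patterning of the digits, and Sall4 acts early in the limb bud, while Sall2 is better known from the eye and the neural tube.

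The H3K27ac lists held 59804 regions in DFL and 69503 in PFL, the H3K27me3 lists 9083 and 13873, and the CTCF lists 54673 and 52801. The lists carry no read totals. The number of fragments piled up at each summit and the local background were therefore solved from the deposited fold and p-value. A level below is the summit pileup divided by the lowest background of its own library, which was 12.49 fragments in DFL and 11.9 in PFL for H3K27ac, 3.06 and 4.75 for H3K27me3, and 6.47 and 7.31 for CTCF. The H3K27me3 pair was the shallowest and the most unequal in depth. Among distal limb markers, 3 of 5 had at least 1.5 times more H3K27ac length in DFL and 0 of 5 in PFL. Muscle markers went the other way, with 6 of 7 longer in PFL, 5147 bp in all 7 windows in DFL against 21308 bp in PFL, and with Myod1 and Pax7 at 0 in DFL. The windows of Myf5 and Myf6 overlap, with the same 458 bp in DFL, so these counts and sums are not of separate places. Of 5 proximal limb markers, Hoxa11, whose window overlaps that of Hoxa13, was longer in DFL and Shox2 in PFL. Of the markers that could be compared, 2 of 5 for endothelium were longer in PFL, blood had 1 of 4 longer in DFL and 1 in PFL, ectoderm had 1 of 3 longer in DFL, and nerve had 0 of 4 in either piece. In bulk tissue fewer cells of a type and less mark per cell cannot be told apart. The part of cell makeup in the values below was not tested.

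All 4 genes had H3K27me3 within 2 kb of a start in both pieces, while H3K27ac differed from gene to gene. A promoter was counted as marked when a region lay within 2 kb of an annotated start. With 1 kb in place of 2 kb, the promoter marks of the 4 genes went from 17 to 13 of 24. H3K27me3 at Sall3 and CTCF at Sall4 lay more than 1 kb from any start in both pieces, so those calls rest on the 2 kb rule. H3K27me3 marked 16.6% of all promoters in DFL and 20.2% in PFL. H3K27ac marked 3 of the 4 Sall promoters in DFL and 4 in PFL, beside 59.2% of all promoters in DFL and 61.6% in PFL. CTCF lay at 1 of the 4, that of Sall4, in both pieces (32.8% of all promoters in DFL and 32% in PFL). HOX13 lay at 2, those of Sall1 and Sall4 (31.7% of all promoters for HOXA13 and 28.7% for HOXD13). Within 50 kb of the 4 starts there were 17 H3K27ac regions in DFL and 22 in PFL, 11 H3K27me3 regions in DFL and 19 in PFL, and 19 CTCF regions in DFL and 17 in PFL. Of the regions called in one piece alone, with no overlap with the other list, 3 were DFL-only and 9 PFL-only for H3K27ac, and 2 DFL-only and 10 PFL-only for H3K27me3. Over the whole lists 62.3% of such H3K27ac regions and 88.1% of such H3K27me3 regions were PFL-only. Of the DFL H3K27ac regions near the Sall genes 82.4% (59.0% to 93.8%) were shared with PFL, and of the PFL regions 59.1% (38.7% to 76.7%) were shared with DFL. Over the whole lists these shares were 73.3% in DFL and 61.9% in PFL, both inside those intervals. For H3K27me3 81.8% of the DFL regions and 47.4% of the PFL regions were shared, beside 91.0% and 56.0% of the whole lists. For CTCF these were 84.2% in DFL and 94.1% in PFL, beside 88.7% and 91.8%.

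**Figure D1:**
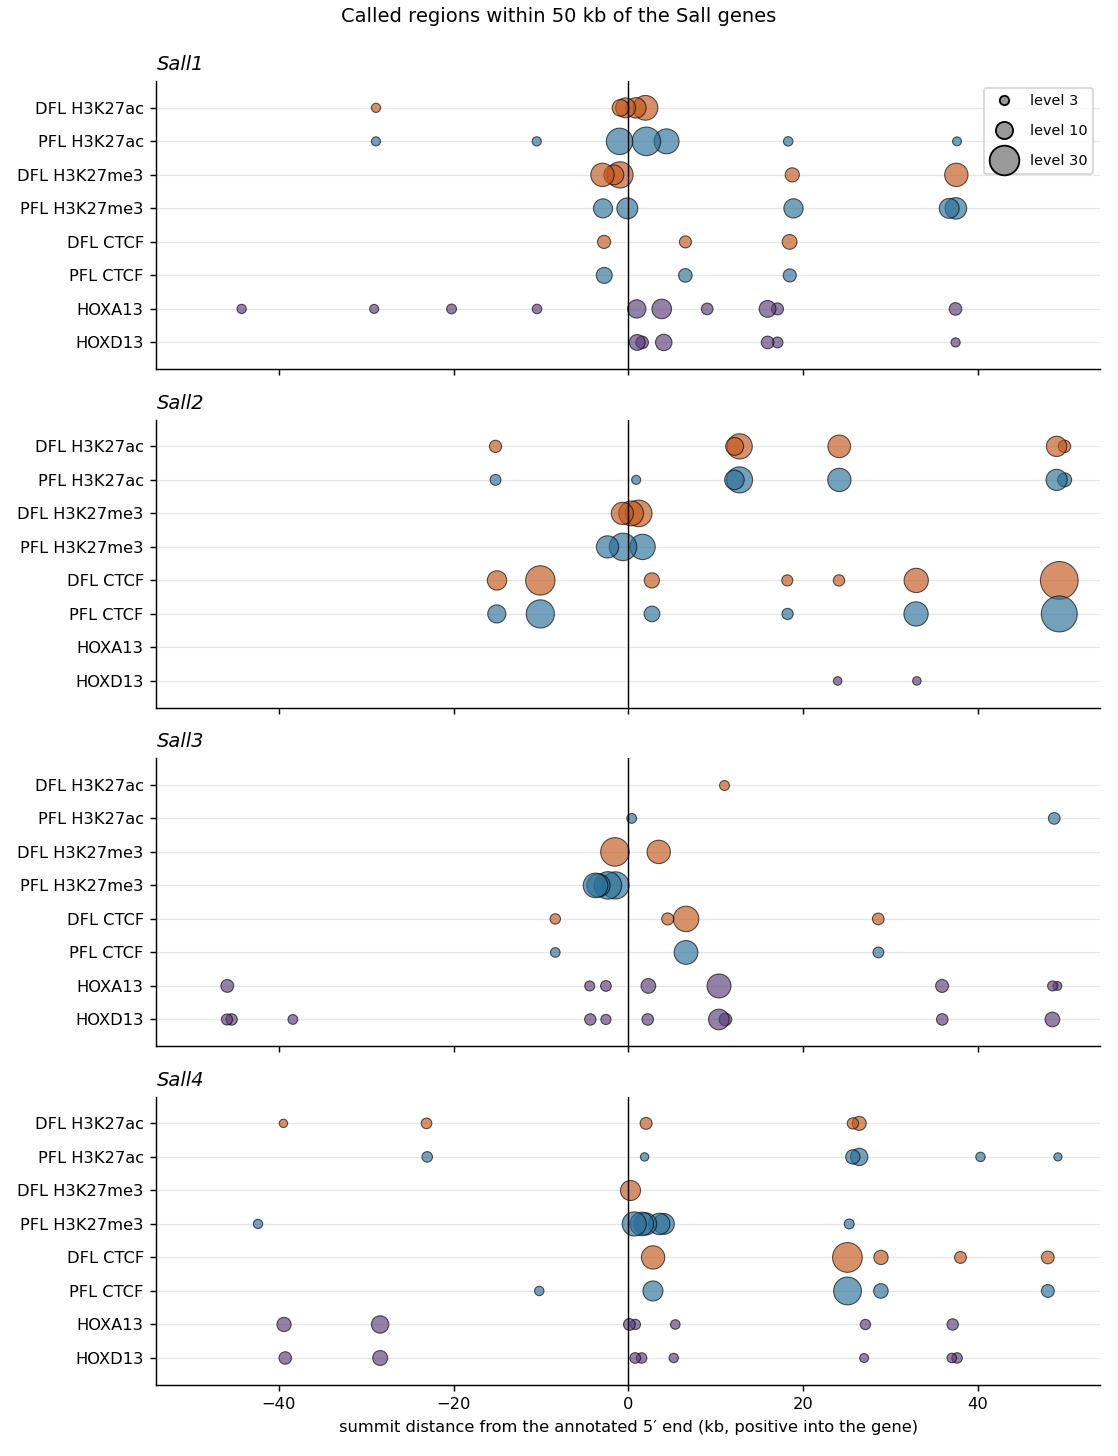
Summits of all regions within 50 kb of the annotated 5′ end of each Sall gene, by distance in kb (positive values run into the gene) and by peak list, with DFL rows above PFL rows and the HOX13 lists below. The area of a point is proportional to the level, the summit pileup over the lowest background of its library. H3K27me3 lies within 2 kb of a start of all 4 genes, at Sall3 only upstream of it. The strong H3K27ac of Sall2 lies 12.7 kb into the gene, and Sall2 has 0 HOXA13 regions.

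By the length under called regions, 0 of the 4 genes leaned to DFL for either histone mark, while 2 leaned to PFL for H3K27ac and 1 for H3K27me3. A lean here means at least 1.5 times the covered length of the other piece, among genes with at least 1000 bp covered in one piece. The PFL-leaning genes for H3K27ac were Sall1 and Sall3, and among all genes tested 2.73% leaned to DFL and 16% to PFL. For H3K27me3 the PFL-leaning gene was Sall4, where 0.736% of all genes tested leaned to DFL and 42.1% to PFL. A PFL lean for H3K27me3 was thus common in these libraries. The leans near the limit moved with the settings: that of Sall1 was lost with a −log10 q of at least 5 (ratio 0.768) or with close regions merged (0.871), and that of Sall3 with windows of 100 kb (0.699). Within 20 kb or with a fold of at least 3, Sall3 had only 902 bp in PFL, too little to compare. What was lost was a 219 bp PFL region at 48.7 kb, whose nearest start, that of Atp9b, lay 3999 bp away. For CTCF 0 of the 4 genes leaned either way, and among all genes tested 1.68% leaned to DFL and 1.01% to PFL. On the log2 scale with 100 bp added to each length, the median of the 4 genes was −0.39 for H3K27ac and −0.29 for H3K27me3, beside −0.17 and −0.47 over all genes tested.

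**Figure D2:**
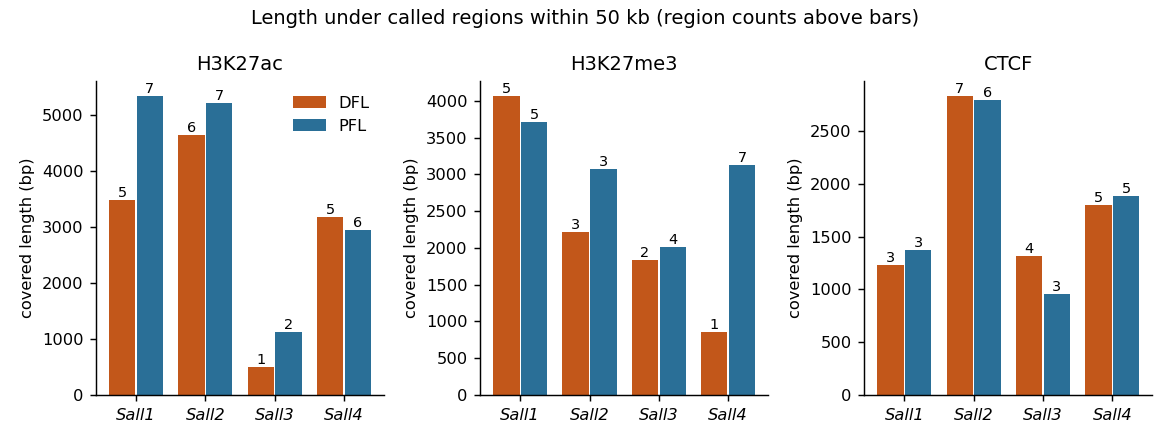
Length in bp under called regions within 50 kb of each Sall gene, with DFL bars left of PFL bars and the number of regions above each bar. Sall4 has 853 bp of H3K27me3 in DFL and 3126 bp in PFL, and Sall1 has 3476 bp of H3K27ac in DFL and 5336 bp in PFL.

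**Figure D3:**
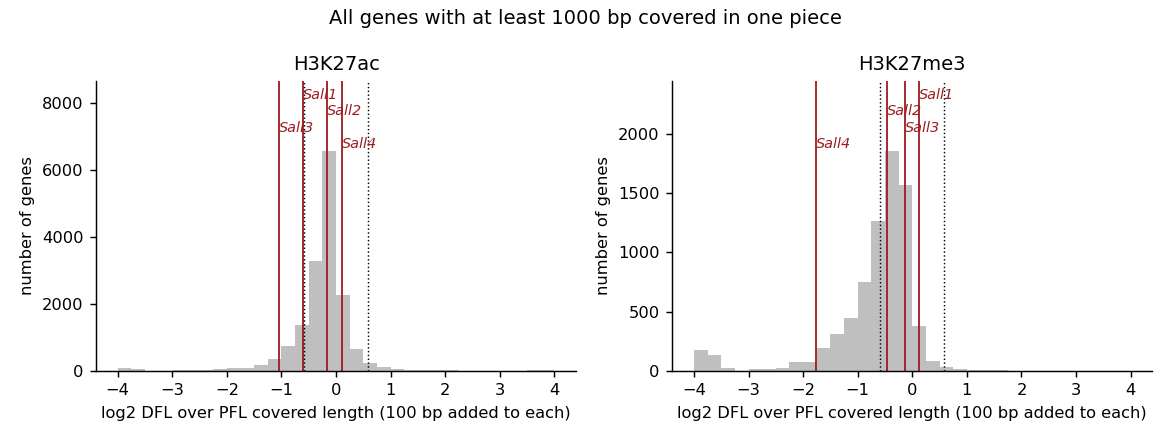
Number of genes by log2 DFL over PFL covered length within 50 kb, with 100 bp added to each length, for H3K27ac and H3K27me3, over all genes with at least 1000 bp covered in one piece. Solid lines mark the Sall genes, dotted lines a ratio of 1.5 in either direction, and the end bins also hold values beyond them. Both distributions are shifted to PFL, and Sall4 lies at −1.76 for H3K27me3.

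Sall1 (ENSMUSG00000031665, mm10 chr8:89027235-89044162, minus strand) had no other protein-coding start within 50 kb and carried strong H3K27ac inside the gene in both pieces. It also carried H3K27me3 upstream of the start, in both pieces. There were 5 H3K27ac regions covering 3476 bp in DFL and 7 covering 5336 bp in PFL, a ratio of 0.651. The highest region lay in an intron, with its summit 1.94 kb downstream of the start in DFL and 2.05 kb in PFL. Its level was 20.9 (18.4 to 23.6) in DFL and 27.8 (24.9 to 30.9) in PFL, a log2 ratio of −0.41 (−0.65 to −0.17). Just upstream, 2 short DFL regions had levels of 13.4 at 0.326 kb and 9.53 at 0.908 kb, where 1 PFL region spanned both with a level of 23.8. The log2 ratios to that PFL summit were −0.82, for summits 0.693 kb apart, and −1.32, while the deposited folds gave −0.02 and −0.44. At 28.9 kb upstream the pieces were close, with 2.88 in DFL and 2.78 in PFL (log2 ratio 0.05, −0.67 to 0.78).

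Around the Sall1 start the whole surroundings were acetylated, more so in PFL. The local background that the peak caller estimated at the intronic summit was 7.86 times the lowest background of the library in DFL and 16.4 times in PFL. At the upstream summits it was 7.27 and 6.87 times in DFL, against 12.7 times in PFL. In 3 of the 4 shared pairs the PFL background was at least 1.5 times that of DFL, as in 4.51% of all shared H3K27ac regions. These 3 pairs lie in one stretch around the start, and both upstream pairs use the same PFL region, so they are not separate observations. The deposited fold is a ratio to this background and therefore turned the comparison at the intronic summit round, with 2.64 in DFL and 1.69 in PFL. Muscle markers, given above, also had more H3K27ac length in PFL, and their part in the values at Sall1 was not tested.

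The regions of one piece alone near Sall1 lay both inside and outside this acetylated stretch. The DFL-only region was 214 bp long, had its summit 0.852 kb into the gene and reached a level of 14.2. It was overlapped by a HOXA13 region (level 11.5) and a HOXD13 region (level 8.56). The highest PFL-only region, 4.36 kb into the gene, had a level of 21.2 and was also overlapped by both HOX13 lists. The other 3 PFL-only regions were weak, at levels of 2.69 to 3.03, and lay 37.6 kb and 18.3 kb downstream of the start and 10.5 kb upstream. A region called in one piece alone does not show that the mark was absent in the other, since the level needed for a call moves with the local background.

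H3K27me3 at Sall1 covered 4067 bp in DFL and 3715 bp in PFL, with 5 regions in each. Upstream of the start its level was higher in DFL. The DFL region with its summit 0.971 kb upstream had a level of 23.5, and the PFL region that overlapped it, by 47 bp, had its summit 0.127 kb upstream with a level of 15.0. Their log2 ratio of 0.65 (0.16 to 1.14) thus compares summits 0.844 kb apart. Where the summits nearly coincided, 2.97 kb upstream, the levels were 18.6 in DFL and 12.4 in PFL, a log2 ratio of 0.58 (0.03 to 1.13). The DFL-only H3K27me3 region, at 13.4, lay between them. Downstream of the gene, 18.7 kb from the start, the level was lower in DFL, 6.85 against 12.6 in PFL (log2 ratio −0.88, −1.67 to −0.15), while the deposited folds gave −0.11. A further shared region at 37.5 kb had 18.6 in DFL and 15.8 in PFL, and the PFL-only region beside it, at 36.7 kb, had 13.5. Among all genes 7.95% carried both marks within 2 kb of a start in both pieces, and 3 of the 4 Sall genes did, all but Sall3, with the marks of Sall2 mainly at different starts.

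The HOX13 lists held 10 HOXA13 and 6 HOXD13 regions within 50 kb of the Sall1 start, with 5 of the HOXD13 regions overlapping a HOXA13 region. By level, the highest of both lay in an intron, at 3.81 kb for HOXA13 (level 13.1, fold 4.77) and 4.04 kb for HOXD13 (level 9.21, fold 4.15). The next were those overlapping the DFL-only H3K27ac region. The HOXA13 region at 3.81 kb overlapped H3K27ac regions on both its sides, and its summit lay in the gap between them. The sequences of both places are shown: 200 bases around the HOXA13 summit at chr8:89040255-89040454 and the whole DFL-only region at chr8:89043197-89043410, both in mm10 and read on the minus strand, the strand of the gene. In the second, capitals mark CG dinucleotides.
Sall1 intronic HOX13 site: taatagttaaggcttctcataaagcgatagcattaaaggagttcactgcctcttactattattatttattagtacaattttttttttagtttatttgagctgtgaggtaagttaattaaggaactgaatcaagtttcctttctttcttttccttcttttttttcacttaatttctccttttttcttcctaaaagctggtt
Sall1 intronic DFL-only region: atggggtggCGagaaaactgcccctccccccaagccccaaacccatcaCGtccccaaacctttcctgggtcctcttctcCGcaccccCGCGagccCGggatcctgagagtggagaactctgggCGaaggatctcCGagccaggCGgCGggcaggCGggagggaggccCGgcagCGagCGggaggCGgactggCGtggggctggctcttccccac
The bases around the HOXA13 summit were rich in A and T, with a GC content of 28.5%, and held 0 copies of CAATAAA on either strand, a motif known for HOX13 proteins. The DFL-only region had a GC content of 69.6% with 16 CG dinucleotides, and held 0 copies as well. CAATAAA, searched on both strands, occurred in the same 200-base window around 17.4% of all HOXA13 summits and 17.9% of all HOXD13 summits. It occurred around 1.38% of the summits of DFL H3K27ac regions without HOX13.

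Sall2 (ENSMUSG00000049532, chr14:52311172-52328762, minus strand) had 2 annotated starts 12439 bp apart in opposite chromatin states, and this held in both pieces. The upstream start carried H3K27me3 and the downstream start H3K27ac. At the upstream start there were 3 H3K27me3 regions in DFL and 2 in PFL within 2 kb. The highest DFL level was 24.1 (19.0 to 30.3), at 1.17 kb into the gene, and the highest PFL level 25.7 (21.4 to 30.7), at 0.619 kb upstream. These summits belong to different regions. The DFL summit 0.076 kb from that PFL summit had a level of 16.6, a log2 ratio of −0.63 (−1.13 to −0.14). The DFL summit 0.304 kb into the gene, set against the same PFL region, gave −0.30 (−0.76 to 0.15). The DFL region at 1.17 kb overlapped a PFL region with a level of 21.9, a log2 ratio of 0.14 (−0.31 to 0.58). H3K27ac there was called only in PFL, as 1 region of 425 bp with a level of 2.78. It overlapped H3K27me3 regions of both pieces in part, and its summit lay in the gap between them. The PFL-only H3K27me3 region, 2.40 kb upstream, had a level of 16.9.

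At the downstream Sall2 start no H3K27me3 was called and H3K27ac was strong. The summit 12.7 kb into the gene had a level of 21.7 (19.2 to 24.4) in DFL and 23.1 (20.5 to 26.1) in PFL, a log2 ratio of −0.09 (−0.34 to 0.15). The deposited folds of 9.11 in DFL and 8.69 in PFL were also close. A smaller region beside it, at 12.1 kb, had 11.0 in DFL and 13.0 in PFL (log2 ratio −0.24, −0.58 to 0.10). Both intervals hold 0. Of 3027 genes with starts more than 4 kb apart, 6.87% had H3K27me3 in both pieces at one start and H3K27ac in both without H3K27me3 at another.

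The bases before both Sall2 starts are shown because the starts differed in state within 1 gene. They are from the RefSeq promoter table for GRCm38.p6, which held 2 of the 4 Sall genes, on the minus strand at chr14:52328763-52328912 and chr14:52316324-52316473, with CG dinucleotides in capitals.
Sall2 upstream start: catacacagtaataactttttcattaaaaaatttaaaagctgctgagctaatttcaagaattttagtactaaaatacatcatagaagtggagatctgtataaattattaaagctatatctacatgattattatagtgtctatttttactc
Sall2 downstream start: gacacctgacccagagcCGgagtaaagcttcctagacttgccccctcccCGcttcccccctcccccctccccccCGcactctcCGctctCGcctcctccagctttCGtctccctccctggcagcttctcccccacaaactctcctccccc
The 150 bases before the upstream start had a GC content of 24.0% and 0 CG dinucleotides, and those before the downstream start 67.3% and 6. Over the whole promoter windows of 300 bases the counts were 1 and 10, beside a median of 7 over 32851 promoters. In these windows the start under H3K27me3 was thus the one poor in CG. The H3K27me3 regions reach beyond the windows, and CG was not counted across them.

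The other H3K27ac near Sall2 was mostly that of its neighbours. Mettl3, the catalytic subunit of the RNA m6A methyltransferase, starts 23634 bp away, Rab2b, a small GTPase, 49217 bp and Tox4, an HMG-box protein, 49616 bp, all on the downstream side, and the olfactory receptor gene Olfr1513 starts on the upstream side. The region at Mettl3 had a level of 17.5 in DFL and 18.5 in PFL, and the one between Rab2b and Tox4 14.1 in DFL and 15.2 in PFL. An intergenic region 15.2 kb upstream of Sall2 had 5.04 in DFL and 4.04 in PFL, a log2 ratio of 0.32 (−0.24 to 0.89). All 6 shared H3K27ac pairs near Sall2 had intervals that hold 0. The window held 0 HOXA13 regions, as for 21.9% of all genes, and 2 HOXD13 regions with a level of 2.46 each, both in exons annotated to Mettl3.

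Sall3 (ENSMUSG00000024565, chr18:80966376-80986771, minus strand) was mainly under H3K27me3 in both pieces, with little H3K27ac. The shared H3K27me3 region upstream of the start had a level of 27.7 (22.2 to 34.3) in DFL, 1.55 kb upstream, and 25.7 (21.4 to 30.7) in PFL, 2.35 kb upstream, a log2 ratio of 0.11 (−0.31 to 0.52). The DFL summit lay in an exon of another annotated gene, Gm27239, so the mark there cannot be assigned to one gene of the pair. The surroundings carried as much in both, and the multiple of the lowest background was 12.3 in DFL and 12.8 in PFL. These were the highest H3K27me3 backgrounds among the 4 genes. In all there were 2 H3K27me3 regions covering 1832 bp in DFL and 4 covering 2009 bp in PFL. The DFL-only one lay 3.46 kb into the gene (level 18.6) and the highest PFL-only one 3.77 kb upstream (level 20.6).

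H3K27ac near Sall3 was called at different places in the 2 pieces, and no region was shared. DFL had 1 region of 494 bp, 10.9 kb into the gene in an intron, with a level of 3.36 (2.42 to 4.54). PFL had 2 regions, one of 902 bp at the start with a level of 3.28 and one of 219 bp at 48.7 kb with a level of 4.63. The promoter of Sall3 was thus called for H3K27ac in PFL alone. Of all genes 1.16% were called there in DFL alone and 3.59% in PFL alone. These are weak regions, and the DFL one ranked 24974 of 59804 in its list by the deposited fold.

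The highest HOX13 levels near any Sall gene lay in that Sall3 intron. The HOXA13 region at 10.4 kb was 1095 bp long, with a level of 19.5 (16.1 to 23.3) and a fold of 6.83, above 95.5% of all HOXA13 regions by level. The HOXD13 region at 10.3 kb had a level of 14.5 (12.0 to 17.5) and a fold of 6.54, above 94.7% of its list. Both overlapped the DFL-only H3K27ac region with their summits outside it, and neither overlapped an H3K27ac region of PFL. The window held 8 HOXA13 and 10 HOXD13 regions in all. The PFL-only H3K27ac region at 48.7 kb was overlapped by both factors as well, HOXA13 at a level of 3.44 and HOXD13 at 7.39, while the PFL region at the start was overlapped by neither. With muscle markers longer in PFL, as given above, their part in the PFL regions of Sall3 was not tested.

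Sall4 (ENSMUSG00000027547, chr2:168748332-168767943, minus strand) had a shorter length under H3K27me3 in DFL. In an intron near its start H3K27ac was higher in DFL. Another annotated gene, Gm14261, overlaps this start, so marks there cannot be assigned to one gene of the pair. H3K27me3 gave 1 region of 853 bp in DFL and 7 regions covering 3126 bp in PFL, a ratio of 0.273. DFL thus had 1 of the 8 regions, a share with an interval of 2.24% to 47.1%, which holds the 39.6% that DFL had of all H3K27me3 regions of both lists. With lists of equal length, 1 DFL and 2 PFL regions were left, of 853 bp and 1779 bp, a ratio of 0.479. At the start itself both pieces were marked, with a level of 13.7 (9.88 to 18.5) in DFL, 0.175 kb into the gene, and 19.8 (16.0 to 24.2) in PFL, 0.663 kb into the gene. The log2 ratio was −0.53 (−1.09 to 0.01), an interval that just holds 0, and the deposited folds turned it round, with 3.07 in DFL and 2.24 in PFL (log2 ratio 0.45). The surroundings stood at a multiple of 4.24 in DFL and 8.72 in PFL, and 6.49% of all shared H3K27me3 regions had a PFL multiple at least 1.5 times that of DFL. Over the 9 shared H3K27me3 regions of the 4 genes, the level was at least 1.5 times higher in DFL in 1 (4.45% of all shared regions) and in PFL in 2 (9.94%), none of them at Sall4.

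Of the 6 PFL-only H3K27me3 regions, 4 followed each other through the intronic stretch of Sall4. Their levels were 19.0 at 1.52 kb, 17.1 at 1.95 kb, 15.6 at 3.52 kb and 14.7 at 4.06 kb. The other 2 were weak, 3.37 near the start of Atp9a and 2.95 at 42.4 kb upstream. The deposited folds of the PFL regions, which are ratios to the local background, were low. At the 4 intronic regions that background was 8.56 to 8.89 times the lowest of the library. Once regions under a fold of 3 were left out, the DFL region alone remained. The DFL library was also the shallower one, and weak DFL regions could be missed. The part of depth in these calls was not tested.

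In the same intron, H3K27ac was higher in DFL. The DFL region of 1042 bp had its summit 2.02 kb into the gene with a level of 4.88 (3.74 to 6.27), from 61 fragments. The PFL region of 546 bp had its summit at 1.85 kb with a level of 2.36 (1.57 to 3.41), from 28 fragments. The log2 ratio was 1.05 (0.38 to 1.75), higher than in 98.7% of shared H3K27ac pairs. Of all shared pairs 5.27% had a level at least 1.5 times higher in DFL and 16.4% one at least 1.5 times higher in PFL. Among the 14 shared pairs near the Sall genes these were 1 and 4, and the Sall4 intron was the 1. Of the 4, the 2 near Sall1 were set against the same PFL region, and the 2 near Sall4 lay at the start of its neighbour Atp9a. The DFL region overlapped 0 DFL H3K27me3 regions, but the PFL H3K27me3 at 1.52 and 1.95 kb lay across it. A HOXD13 region at 1.51 kb (level 3.76) overlapped it as well.

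The sequence around the DFL H3K27ac summit, chr2:168765822-168766021 on the minus strand of mm10, is shown because the H3K27ac level differed between the pieces here and H3K27me3 was called in PFL alone. Capitals mark CG dinucleotides.
Sall4 intronic H3K27ac summit: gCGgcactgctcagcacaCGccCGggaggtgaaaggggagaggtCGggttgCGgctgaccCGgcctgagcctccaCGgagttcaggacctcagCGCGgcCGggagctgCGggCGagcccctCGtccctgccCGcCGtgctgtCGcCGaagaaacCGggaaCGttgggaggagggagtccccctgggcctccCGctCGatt
Its GC content was 71.5%, with 21 CG dinucleotides in 200 bases.

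Other H3K27ac near Sall4 did not lean to DFL. At the start of Atp9a, which encodes a P4-type ATPase and begins 25534 bp away on the downstream side, the levels were 6.64 in DFL and 10.3 in PFL at 26.4 kb (log2 ratio −0.63, −1.05 to −0.21). At 25.7 kb they were 4.32 in DFL and 6.99 in PFL (log2 ratio −0.69). An intergenic region 23.1 kb upstream of Sall4 had 3.84 in DFL and 3.79 in PFL, a log2 ratio of 0.02 (−0.60 to 0.64). The PFL-only regions, with levels of 3.03 and 2.27, lay in introns of Atp9a. The only DFL-only region was 209 bp long, lay 39.5 kb upstream of Sall4 and had a level of 2.40, with a HOXA13 region (6.88) and a HOXD13 region (5.32) across it.

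**Figure D4:**
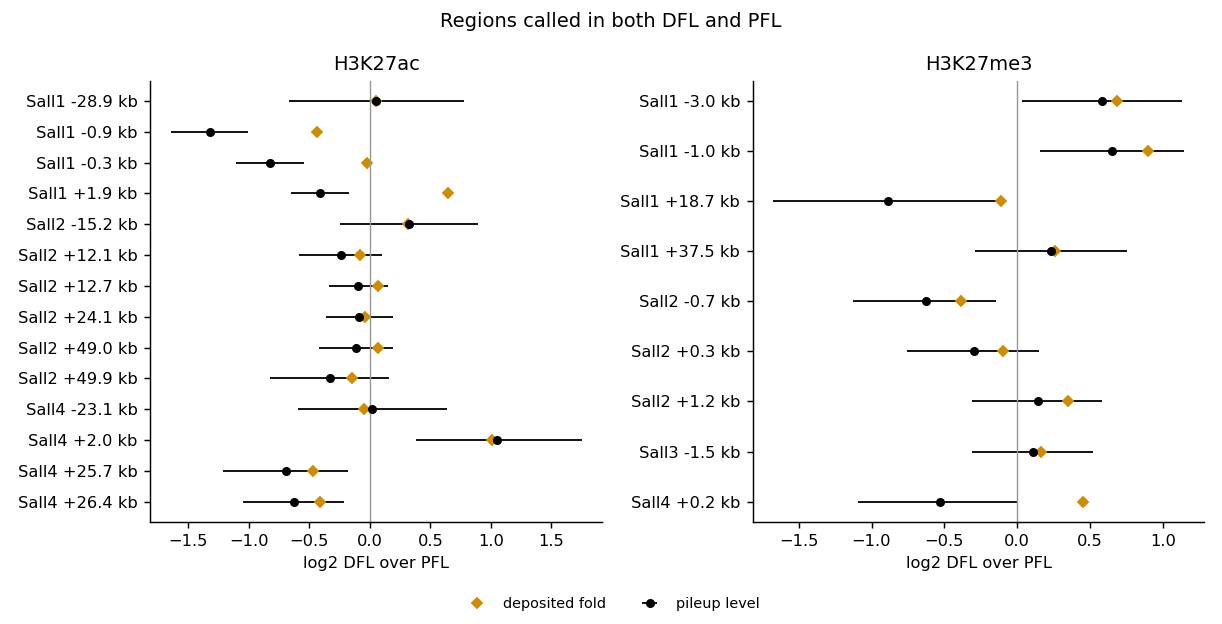
Log2 DFL over PFL at H3K27ac and H3K27me3 regions called in both pieces, by gene and distance of the DFL summit from the start in kb. Black points give the ratio of levels with its 95% interval for counting error, and diamonds the ratio of the deposited folds, which are relative to the local background. The Sall4 intron stands at 1.05 for H3K27ac on the level, and at the Sall1 intron, 1.94 kb into the gene, the level (−0.41) and the fold (0.64) lie on opposite sides of 0.

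The strongest HOX13 region near Sall4, 28.4 kb upstream, overlapped none of the 6 sample lists. Its level was 10.3 (7.93 to 13.2) with a fold of 8.04 for HOXA13 and 7.65 (5.83 to 9.87) with a fold of 6.72 for HOXD13. Such sites were common, since 60.5% of all HOXA13 regions and 59.5% of all HOXD13 regions overlapped none of the 6. It is shown, with the DFL-only H3K27ac region upstream of it, since these were the intergenic HOX13 sites of Sall4 with the highest levels. The windows are chr2:168796254-168796453 and chr2:168807305-168807513, on the minus strand of mm10, and capitals mark CAATAAA on either strand.
Sall4 upstream HOX13 site: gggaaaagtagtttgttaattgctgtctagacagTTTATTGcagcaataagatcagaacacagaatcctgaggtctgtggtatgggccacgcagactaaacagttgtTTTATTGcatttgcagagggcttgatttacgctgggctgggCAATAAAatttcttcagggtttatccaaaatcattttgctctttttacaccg
Sall4 upstream DFL-only region: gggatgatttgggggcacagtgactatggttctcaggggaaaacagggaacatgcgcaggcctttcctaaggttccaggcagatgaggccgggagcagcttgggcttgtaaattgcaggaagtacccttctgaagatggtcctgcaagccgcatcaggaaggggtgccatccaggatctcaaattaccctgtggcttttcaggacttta
The first held 3 copies of the motif and the second held 0. At least 3 copies lay in 60 of the 66761 HOXA13 windows (0.0899%), and at least 1 copy in 17.4%. The cutoff of 3 is the count of this site, so the first share depends on its own value. The motif is a match of letters and was not tested for binding.

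Sall1, Sall3 and Sall4 were rich in HOX13, and Sall2 had 0 HOXA13 regions. At least 6 HOXA13 and at least 6 HOXD13 regions lay within 50 kb of Sall1, Sall3 and Sall4, as of 5.52% of all genes. The cutoff of 6 is the lowest count among these 3 genes, so that share depends on their own values. Counts were 10 HOXA13 and 6 HOXD13 for Sall1, 8 and 10 for Sall3, and 7 and 8 for Sall4. Of all genes, 98.4% had fewer HOXA13 and 92.6% fewer HOXD13 regions than Sall1. These shares were 96.0% and 98.7% for Sall3, 93.4% and 97.3% for Sall4, and 0% and 46.6% for Sall2. All 3 DFL-only H3K27ac regions, in Sall1, Sall3 and upstream of Sall4, overlapped HOX13, where 32.5% of all DFL-only regions did, but 3 regions leave an interval of 43.9% to 100%. A HOX13 summit lay inside 2 of the 3, those of Sall1 and Sall4, and inside 1 of the 9 PFL-only regions. For shared regions this held for 3 of 14 in DFL and 2 of 13 in PFL. The share of all regions with a summit inside was not computed, so these few counts have no background beside them. Of the PFL-only regions 4 of 9 overlapped HOX13, where 12.53% of all PFL-only regions did. Of the shared DFL regions 4 of 14 did, beside 40.9% of all of them, and of the shared PFL regions 5 of 13, beside 41.5%. Near the Sall genes HOX13 regions also lay under H3K27me3 of both pieces. In DFL this held for 4 of 25 HOXA13 and 3 of 26 HOXD13 regions, and in PFL for 4 of 25 and 4 of 26. In the whole lists 1.243% of HOXA13 and 0.847% of HOXD13 regions did in DFL, and 2.38% and 1.95% in PFL.

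CTCF levels differed little between the pieces at most shared sites. All 16 shared pairs had levels within 1.5 times of each other, where 5.33% of all shared CTCF regions were at least 1.5 times higher in DFL and 1.38% in PFL. The highest site lay between Rab2b and Tox4, 49.3 kb from the Sall2 start, with a level of 48.5 in DFL and 44.0 in PFL. Upstream of Sall2, at 10.1 kb, the levels were 29.4 in DFL and 27.1 in PFL. In Sall3 the highest site was intronic, 6.60 kb into the gene, with 22.1 in DFL and 19.3 in PFL. A DFL-only site 4.49 kb into Sall3 had a level of 4.95. Near Sall4 the highest site lay 25.1 kb downstream of the start, beside Atp9a, with 30.1 in DFL and 26.4 in PFL. The site in a UTR exon of Sall4, 2.82 kb into the gene, had 18.5 in DFL and 13.7 in PFL, a log2 ratio of 0.44 (0.05 to 0.84), the only one of the 16 whose interval leaves out 0. Over all shared CTCF regions the median log2 ratio was 0.14. Sall1 had no CTCF level above 8.75, with levels of 7.42 in DFL and 5.88 in PFL at 18.4 kb, and of 5.87 in DFL and 8.75 in PFL at 2.79 kb upstream. That last ratio, −0.57 (−1.19 to 0.03) on the log2 scale, was above that of only 1.45% of shared CTCF pairs, and it became −0.72, past 1.5 times, with the median of all shared regions set to 0.

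The genes that work with Sall proteins were described in the same way. Of 13 NuRD genes all had H3K27ac, 0 leaned to DFL and 1, the histone-binding subunit Rbbp4, leaned to PFL, beside 2.73% to DFL and 16% to PFL over all genes tested. For H3K27me3, 4 of them could be compared, and 0 leaned to DFL and 2 to PFL, where 42.1% of all genes tested leaned to PFL. All 13 carried H3K27ac at the promoter in both pieces, as 59.2% of all genes did in DFL and 61.6% in PFL. Of 16 genes listed as limb partners or targets, 14 could be compared for H3K27ac, with Hoxa13 and Gli3 leaning to DFL and Grem1 and Irx3 to PFL. Hoxa13 encodes the digit factor itself, Gli3 a transcription factor of hedgehog signalling, Grem1 a secreted BMP antagonist and Irx3 a homeodomain factor of the proximal and anterior limb. Covered length was 24968 bp in DFL and 14774 bp in PFL for Hoxa13, and 0 in DFL and 3341 bp in PFL for Grem1. For H3K27me3, 10 of these genes could be compared, and 1, Tbx5, the forelimb T-box factor, leaned to DFL and 6 to PFL, beside 0.736% to DFL and 42.1% to PFL over all genes tested. The median log2 ratio of the partners was −0.03 for H3K27ac and −0.99 for H3K27me3, beside −0.17 and −0.47 over all genes tested.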

How the data were processed

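ChIP-seq peak lists of 6 samples and 2 HOX13 lists were used. Tools named in the labels are Bowtie, MACS2, SAMtools and cutadapt, and the build is mm10. According to the methods, the authors called peaks for each library by itself, without an input control. Each deposited line gives the fold, a ratio of summit pileup to local background, the deposited −log10 p and −log10 q, and a score, which was not used. The deposited summit offset gave the summit positions. Lines sharing an interval or overlapping were merged to regions on autosomes and X. Pileup and background were solved from fold and −log10 p (tolerance 0.001), which failed for 0 to 9 lines of a list, and the solver was tested on simulated data. Gene models were GENCODE basic transcripts on GRCm38. All 32619 RefSeq promoter sequences on the chromosomes used matched the genome sequence. Shared meant an overlap of at least 1 bp. Shares carry Wilson intervals, levels exact Poisson intervals and ratios exact conditional binomial intervals. Named were the 4 genes, protein-coding genes starting within 50 kb, regions at promoters, and per list the highest shared and piece-only regions. Members and lists were chosen with earlier results of these data known. Alternatives covered windows, thresholds, list length, merging and overlap rules. Python 3.11.15, pandas 2.3.3 and scipy 1.17.1 were used.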

Additional observations from a re-analysis of the deposited data

How the results depend on the processing

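Of the 294 alternative values for shares, counts, level ratios and covered lengths, 282 stayed within the interval of the reported value (for a length, that of the share of regions) or, for the count of promoter marks, within 1.5 times it. The intervals of the shares per gene rest on few regions and are wide, so staying inside one says little. That of the Sall3 H3K27ac share ran from 6.15% to 79.2%. The DFL share of H3K27me3 regions near Sall3 went from 33.3% to 66.7% with close regions merged and still counted as inside. The 12 exceptions concern the fold, the scaling and HOX13. With a fold of at least 3, the DFL share of H3K27me3 regions near Sall4 and of their length turned to 100%, because 1 DFL and 0 PFL regions were left. Over both pieces, 16 of 39 H3K27ac regions near the Sall genes (41.0%) overlapped HOX13, with shared places counted in each piece. This share was 20.5% with the HOX13 summit inside the region, 17.9% with both factors and 5.13% with a HOX13 fold of at least 5. Whole-list shares were not computed for these pooled values. The summed H3K27ac level of 13 shared pairs, each PFL region counted once, had a log2 ratio of −0.27 (−0.36 to −0.17), which became 0.020 with the deposited fold and −0.10 with the median of all shared regions set to 0, both alternatives chosen after seeing the data. With the deposited fold the log2 ratio was 0.64 at the Sall1 intron 1.94 kb into the gene, −0.02 and −0.44 upstream of it, −0.11 for H3K27me3 at 18.7 kb of Sall1 and 0.45 for H3K27me3 at the Sall4 start. Of 98 alternatives for covered length, 14 changed whether a gene leaned or could be compared. Beside those named above, Sall4 leaned to DFL for H3K27ac within 20 kb (1.91) or with a fold of at least 3 (1.52), Sall2 to PFL for H3K27me3 with a −log10 q of at least 5 (0.627) or close regions merged (0.613), and Sall3 to DFL for CTCF with a −log10 q of at least 5 or a fold of at least 3 (1.81 each). In the other 5, all under a fold of at least 3 or within 20 kb, too little length was left to compare. Those for H3K27ac near Sall3, given above, are among them. Leaving out regions at neighbours' promoters, also chosen after seeing the data, moved no share of Sall2 or Sall4 out of its interval. No paired analysis was possible because each group had 1 library. For the same reason no library could be left out. Pileups of 14 to 330 fragments limit single regions, and H3K27me3 in DFL is the shallowest library.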
